A study of Mus musculus with 8 samples.

Results

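Mouse embryonic stem cells (ESCs) labelled as kept in the 2i condition were examined after the gene of nucleostemin (NS, symbol Gnl3) had been shut off. The arrays described are the 2i pair, 2 of 8 arrays, and the members are the 18194 genes that these Affymetrix mouse genome arrays measured, each read from its probe set of highest mean signal and none left out for its level. NS tet-off ESCs are a male 129sv line in which both copies of the NS gene were disrupted and an NS cDNA at the ROSA26 locus was placed under the tetracycline-off system, so that doxycycline (Dox) ends NS expression. The 2i Dox-treated array is labelled as empty vector-bearing NS tet-off ESCs with 2i and 6 days of Dox, and the 2i Dox-untreated array as such cells with 2i and no Dox. The 2i condition adds a MEK inhibitor (PD0325901) and a GSK-3 inhibitor (CHIR99021) to the culture. On the 2i Dox-untreated array the log2 signals of Dusp6 (10.95) and Spry4 (9.92), genes that a MEK inhibitor lowers, stood near the empty vector Dox-untreated array (10.97 and 10.17), which goes against its label, and whether the inhibitors were in that culture cannot be told from these arrays. The names 2i Dox-untreated and 2i pair follow the labels throughout. The 2i arrays are set beside the empty vector pair, the pair without the inhibitors: the same vector-bearing cells with 6 days of Dox and without Dox in medium with leukemia inhibitory factor (LIF) and serum, off feeder cells. The paper speaks of a 2i plus LIF condition beside this one, and the sources used here do not say whether the 2i cultures held serum. Between the pairs, the inhibitors and any other difference of medium cannot be told apart. Pairs of Nanog-overexpressing and Esrrb-overexpressing NS tet-off ESCs, each with 6 days of Dox and without, serve for the spread between backgrounds. A pair with a constitutively active Stat3 is not analysed here. All cells derive from 1 line and each condition has 1 array, so a difference within the 2i pair has no replicate check and no test. The log2 ratio is the signal of the Dox-treated array minus that of the Dox-untreated array on the log2 scale, and the number of arrays limits its precision.

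NS is a GTP-binding protein of the nucleolus that takes part in ribosome production and in protection of the genome. In ESCs, fibroblast growth factor signals through MEK and Erk and moves cells towards differentiation, and GSK-3 lowers beta-catenin, which acts with Tcf factors on Wnt target genes. Blocking both kinases holds ESCs in a naive state that resembles the inner cell mass, in which feedback genes of Erk signalling such as Dusp6 and Spry4 are low.

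The 2i Dox-treated array passed a check of its Dox label. Gnl3 stood at 8.01 in 2i Dox-treated cells, against 13.54 in 2i Dox-untreated cells, which leaves 2.17% of the signal. In the empty vector pair 1.95% was left, and in the Nanog and Esrrb pairs 4.25% and 3.13%. Both 2i arrays carried the defining genes of ESCs: Pou5f1, which encodes Oct3/4, had 12.99 in 2i Dox-treated and 13.28 in 2i Dox-untreated cells, Sox2 had 12.93 and 12.88, and Zfp42 had 13.01 and 13.23. The signals of all probe sets ran from 1.82 to 14.6. Over all genes, 875 (4.81%) had over 2-fold more and 564 (3.10%) over 2-fold less signal in 2i Dox-treated than in 2i Dox-untreated cells. In the empty vector pair these were 976 (5.36%) and 701 (3.85%). The 2i and the empty vector Dox-untreated arrays, both of cells with NS, stood close to each other: their difference had an SD of 0.28 over genes, and 94 genes (0.517%) stood higher and 44 (0.242%) lower by over 2-fold on the 2i array. On the Dox-treated arrays the same difference had an SD of 0.51, with 571 genes (3.14%) higher and 469 (2.58%) lower. In the Nanog pair 1.13% of genes were higher and 1.17% lower by over 2-fold on the Dox-treated array, and in the Esrrb pair 1.06% and 0.967%. The gene lists used here were chosen with earlier results of these data known, so their counts are only set beside these percentages and carry no test.

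Among the targets of MEK and Erk signalling, feedback genes were low in 2i Dox-treated cells and at the level of the empty vector cells on the 2i Dox-untreated array. Spry4, which encodes an inhibitor of receptor tyrosine kinase signalling, had 4.07 in 2i Dox-treated and 9.92 in 2i Dox-untreated cells, against 9.17 and 10.17 in empty vector Dox-treated and Dox-untreated cells. Dusp6, a phosphatase that inactivates Erk, had 7.63 in 2i Dox-treated and 10.95 in 2i Dox-untreated cells, against 11.40 and 10.97 in empty vector Dox-treated and Dox-untreated cells. The 2i Dox-treated array was thus the one low array of the 4 for both genes. The phosphatase gene Dusp4 was likewise at 4.27 in 2i Dox-treated and 7.71 in 2i Dox-untreated cells, and Etv4, an Ets family transcription factor, at 6.10 and 8.91. In empty vector Dox-treated cells Dusp4 stood at 7.91 and Etv4 at 9.05. Because the 2i Dox-untreated array does not show the low feedback genes that a MEK inhibitor gives, the loss of NS and an effect of the inhibitors cannot be told apart within the 2i pair. The empty vector pair holds the loss of NS with neither inhibitor.

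Of 28 measured genes of 30 in the MEK and Erk list, 8 stood lower and 4 higher by over 2-fold in the 2i pair, with a median log2 ratio of -0.30. Over all genes 3.10% were lower and 4.81% higher, with a median of 0.03. The other genes over 2-fold lower were Myc with -2.07, Emp1 with -1.18, Spred1 with -1.17 and Spry1 with -1.09. In the empty vector pair 1 gene of the list, Spry4, was over 2-fold lower and 6 over 2-fold higher, with a median of 0.29. Not all targets followed. Etv5, an Ets factor close to Etv4, stood at 12.07 in 2i Dox-treated and 11.68 in 2i Dox-untreated cells. The receptor gene Epha4 was higher by 1.60, Phlda1 by 1.80, Fos by 1.07 and Lif by 2.05 in the 2i pair and by 0.97, 3.67, 0.99 and 1.24 without the inhibitors. Epha4, Fos and Egr1 were also the genes of this list higher by over 2-fold on the 2i array of the Dox-untreated arrays, by 1.64, 1.17 and 1.22. One of the 4 probe sets of Spry4 had a log2 ratio of only -0.60, and the 8 of Spred1 ran from -2.41 to -0.30. Dusp6, Dusp4 and Myc were each read by a single one.

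**Figure D1:**
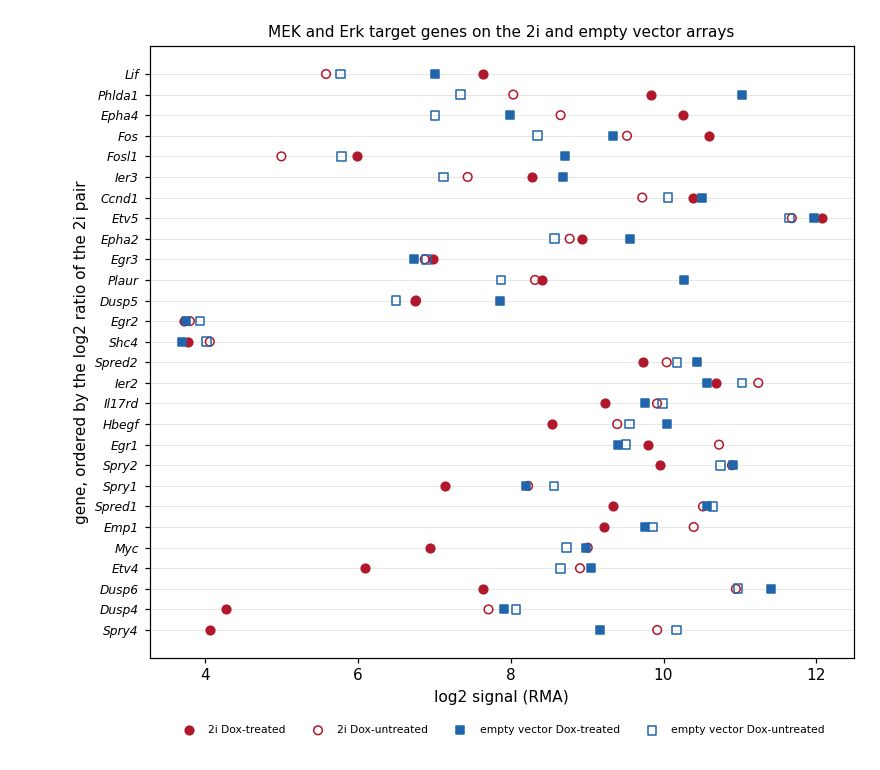
Log2 signal (horizontal axis) of the 28 measured MEK and Erk target genes (vertical axis) on 4 arrays: filled circles for 2i Dox-treated, open circles for 2i Dox-untreated, filled squares for empty vector Dox-treated and open squares for empty vector Dox-untreated cells. Spry4, Dusp4, Dusp6, Etv4 and Myc are low on the 2i Dox-treated array alone, and Lif, Phlda1 and Epha4 are higher on both Dox-treated arrays than on their Dox-untreated counterparts.

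Targets of Wnt and beta-catenin, which a GSK-3 inhibitor raises, were mixed. Of 25 measured genes, 5 stood higher and 2 lower by over 2-fold in the 2i pair, with a median of 0.23; in the empty vector pair 4 were higher and 1 lower, with a median of 0.14. Axin2, a feedback gene of the pathway, stood at 8.63 in 2i Dox-treated and 7.65 in 2i Dox-untreated cells, and at 7.73 and 6.94 in empty vector Dox-treated and Dox-untreated cells. Sp5, a transcription factor induced by Wnt, was higher by 2.05 in the 2i pair and by 2.12 without the inhibitors. Apcdd1, which encodes an inhibitor of Wnt receptors, behaved otherwise. It had 9.48 in 2i Dox-treated and 7.42 in 2i Dox-untreated cells, against 7.17 and 6.90 in empty vector Dox-treated and Dox-untreated cells. The 6 probe sets of Apcdd1 ran from 0.57 to 2.07 in the 2i pair. The probe sets of Dkk1, a secreted Wnt inhibitor, disagreed in the 2i pair, between -0.02 and 1.81.

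Many genes of the 2i pair had the same direction in cells that had lost NS without the inhibitors. Of the genes over 2-fold higher in the 2i pair, 506 were also higher to that extent without the inhibitors, which is 57.8% of the 2i genes and 51.8% of the empty vector genes. Of those over 2-fold lower, 269 were shared, 47.7% of the 2i genes and 38.4% of the empty vector genes. The shared genes had medians of 1.60 with 2i and 1.80 without the inhibitors where higher, and of -1.45 and -1.44 where lower. Their medians where higher were 0.57 with Nanog and 0.57 with Esrrb. A further 133 higher and 135 lower genes had the same direction at 1.5- to 2-fold without the inhibitors.

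Among genes with a mean signal above the median of all genes (6.69), the 15 highest ratios of the 2i pair belonged to the shared genes, with the exception of Calcoco2. Cryab, a small heat shock protein gene, had 11.68 in 2i Dox-treated and 7.06 in 2i Dox-untreated cells, and 11.38 and 6.64 in empty vector Dox-treated and Dox-untreated cells. Ms4a10, a gene of a family of membrane proteins, was higher by 4.47 in the 2i pair and 4.51 without the inhibitors. Both genes were thus high on both Dox-treated arrays. The 13 others of the 15 highest were Calcoco2, Tgfbr3, Rtkn, Pik3r3, Gask1b, Cyyr1, Gpx3, Tap1, Mst1, Aldh1l1, Plk2, Sbsn and Neurod1, at 3.30 to 3.94 in the 2i pair. Of these Tgfbr3, a co-receptor for transforming growth factor beta, had 3.83 with 2i and 2.92 without the inhibitors, and Gpx3, a secreted glutathione peroxidase, 3.51 and 3.40. Among the 15 lowest, Esrp1, a splicing regulator of epithelial cells, had 4.78 in 2i Dox-treated and 9.15 in 2i Dox-untreated cells, against 8.40 and 9.99 in empty vector Dox-treated and Dox-untreated cells. Napsa, an aspartic protease gene, had ratios of -3.36 and -2.78, and Dmrt1, a transcription factor gene of germ cells, -3.01 and -2.47 in the 2i and empty vector pairs. Rasgrp2, which activates the small GTPase Rap1, had -3.25 and -0.98. Pla2g7, which cleaves platelet-activating factor, stood apart from these with 5.89 in 2i Dox-treated and 9.81 in 2i Dox-untreated cells, against 9.24 and 8.36 in empty vector Dox-treated and Dox-untreated cells. Sox7 is among the lowest with -2.94, but its other probe set had 0.15. Several other genes of this paragraph also had probe sets with a small ratio in the 2i pair, namely Rasgrp2 with -0.13, Cryab with 0.23, Plk2 with 0.29, Tgfbr3 with 0.48, Cyyr1 with 0.55, Aldh1l1 with 0.66 and Tap1 with 0.05.

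**Figure D2:**
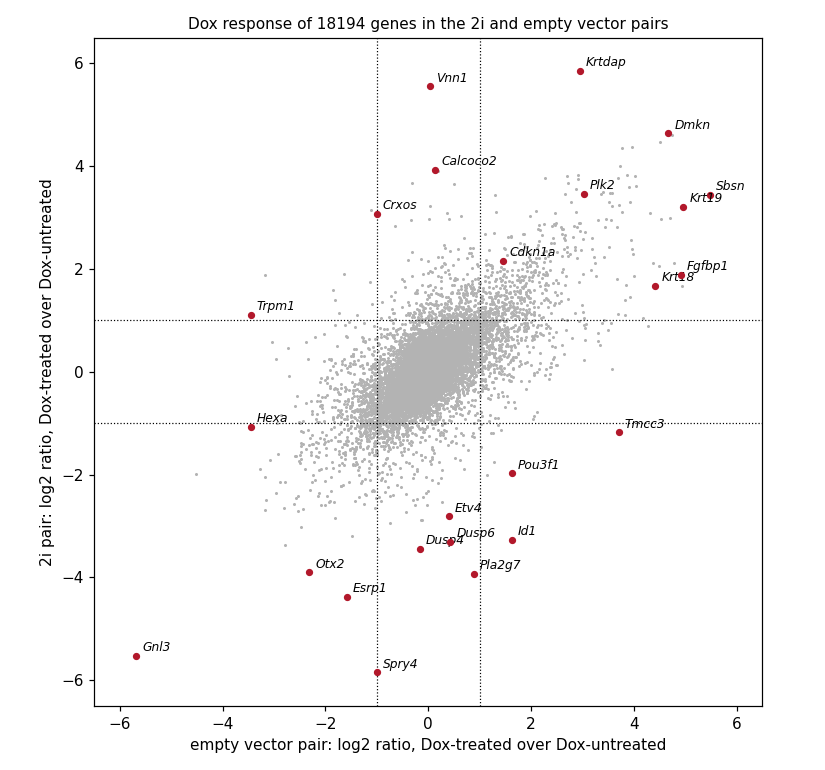
Log2 ratios (Dox-treated minus Dox-untreated log2 signal) of the 2i pair (vertical axis) and of the empty vector pair (horizontal axis) for 18194 genes, 1 grey point each, with named genes in red and dotted lines at 2-fold. Dmkn, Sbsn and Plk2 are high in both pairs, Calcoco2 and Vnn1 are high in the 2i pair alone, Dusp4, Dusp6 and Etv4 are low in it alone, and Id1, Pou3f1 and Tmcc3 are low with 2i and high without the inhibitors.

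Other genes exceeded 2-fold in the 2i pair and stayed within 1.5-fold without the inhibitors: 213 of those higher (24.3%) and 138 of those lower (24.5%). The share of all genes within 1.5-fold in the empty vector pair was not counted, so these percentages have nothing to be set against. With 1 array per condition, such a choice of genes also gathers variation between arrays. Of the 213, 136 were also over 2-fold higher in 2i than in empty vector cells on the Dox-treated arrays, and of the 138, 73 were over 2-fold lower there, a comparison that shares the 2i Dox-treated array with the ratio itself. On the Dox-untreated arrays 7 of the 213 and 7 of the 138 differed over 2-fold between 2i and empty vector cells in either direction. Over all 18194 genes, 94 (0.517%) stood higher and 44 (0.242%) lower there, so such differences were more frequent among the chosen genes. As for Dusp6 and Spry4, NS loss and inhibitor cannot be told apart for the chosen genes, since no array holds 2i cells that both keep NS and show a low Dusp6. The highest was Calcoco2, which in human cells encodes an autophagy receptor, at 12.26 in 2i Dox-treated and 8.33 in 2i Dox-untreated cells, against 7.47 and 7.34 in empty vector Dox-treated and Dox-untreated cells. Hspb8, another small heat shock protein gene, was at 10.62 in 2i Dox-treated and 8.23 in 2i Dox-untreated cells, against 9.28 and 8.69 in empty vector Dox-treated and Dox-untreated cells. Fabp5, a fatty acid carrier gene, was higher by 2.16 in the 2i pair and stood at 10.17 on both empty vector arrays. Slc25a20, the carrier of acylcarnitines into mitochondria, was higher by 1.90, and Ak4, a mitochondrial adenylate kinase, by 1.76. The empty vector pair had -0.11 for Slc25a20 and -0.48 for Ak4, and the 5 probe sets of Ak4 ran from 0.17 to 1.76 in the 2i pair. Gca, Snx20, Atg16l2 and Plpp3 complete the 10 highest with ratios of 1.83 to 2.08.

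The 10 lowest of this kind held Dusp4, Dusp6 and Etv4 and 7 genes of other functions. Tgfbi, a matrix protein induced by transforming growth factor beta, had 4.94 in 2i Dox-treated and 7.83 in 2i Dox-untreated cells, against 7.13 and 7.24 in empty vector Dox-treated and Dox-untreated cells. Gbx2, a homeobox gene that LIF and Stat3 induce, had 6.11 in 2i Dox-treated and 8.71 in 2i Dox-untreated cells, against 8.14 and 8.17 in empty vector Dox-treated and Dox-untreated cells. Bmp4, a ligand that supports ESCs together with LIF, had 8.24 in 2i Dox-treated and 10.72 in 2i Dox-untreated cells, against 10.62 and 10.83 in empty vector Dox-treated and Dox-untreated cells. In each case the 2i Dox-treated array stood apart from the other 3, which largely follows from how these genes were chosen. Calml4, Ppm1j, 9930012K11Rik and Soga3 had 2i ratios between -2.89 and -2.50, with another probe set of Soga3 at -0.19.

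**Figure D3:**
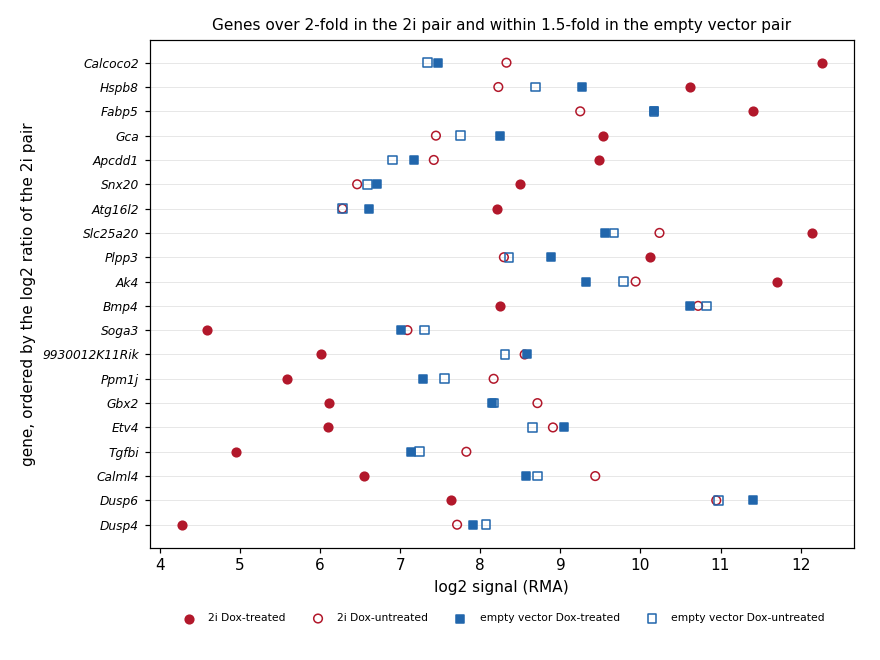
Log2 signal (horizontal axis) of the 10 highest and the 10 lowest genes that were over 2-fold in the 2i pair and within 1.5-fold in the empty vector pair (vertical axis), with symbols for the 4 arrays given in the legend. The filled circle of the 2i Dox-treated array lies apart from the other 3 symbols, which lie closer together. This layout largely follows from the choice of the genes by these ratios.

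In 22 genes the pairs went over 2-fold in opposite directions, 11 higher and 11 lower in the 2i pair. Id1, an inhibitor of basic helix-loop-helix factors induced by bone morphogenetic proteins, had 7.21 in 2i Dox-treated and 10.48 in 2i Dox-untreated cells, against 12.18 and 10.55 in empty vector Dox-treated and Dox-untreated cells. Pou3f1, a transcription factor gene of the primed epiblast, had 5.38 in 2i Dox-treated and 7.35 in 2i Dox-untreated cells, against 9.25 and 7.63 in empty vector Dox-treated and Dox-untreated cells. The Dox-untreated arrays were close in both genes. Of the genes higher in the 2i pair, Aqp3, an aquaporin that also carries glycerol, had 10.70 in 2i Dox-treated and 8.82 in 2i Dox-untreated cells, against 7.31 and 10.49 in empty vector Dox-treated and Dox-untreated cells. Trpm1, a cation channel gene, had ratios of 1.11 with 2i and -3.46 without the inhibitors, AA467197 3.15 and -1.12, and Tmcc3 -1.18 and 3.71.

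The 2i response was tested against the mean response of the empty vector, Nanog and Esrrb pairs with limma, in which those 3 pairs give the spread with 2 residual degrees of freedom and the lone 2i pair is assumed to vary like them. No gene of 18194 passed an adjusted p of 0.05 (0.00% in either direction), and 1383 genes had an unadjusted p under 0.05, 809 of them higher and 574 lower. The smallest adjusted p was 0.1375, for Dusp6 and for Tbx18. Dusp6 differed by -3.56 (standard error 0.198) from the other pairs, whose mean ratio was 0.24, and Tbx18, a T-box factor gene, by 3.36 (standard error 0.206). Next came Vnn1, a pantetheinase gene, with 5.86 (standard error 0.410, adjusted p = 0.15 from limma), followed by Aspa, Calcoco2, Gm32960, Fabp5 and Bhmt at the same adjusted p. Vnn1 had 9.27 in 2i Dox-treated and 3.72 in 2i Dox-untreated cells, against 3.82 and 3.79 in empty vector Dox-treated and Dox-untreated cells. Aspa, an aspartoacylase gene, had 9.14 and 5.23, and Bhmt, a methyltransferase gene of methionine synthesis, 7.88 and 4.21 on the 2i Dox-treated and Dox-untreated arrays. Tbx18, Vnn1, Aspa, Gm32960 and Bhmt were named after their values were seen, and so were list members past the 4 with the largest ratios. Leaving out the empty vector pair, so that the Nanog and Esrrb pairs alone stand against the 2i pair with 1 residual degree of freedom, 2089 genes passed, 1087 higher (5.97%) and 1002 lower (5.51%).

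Genes of naive pluripotency were closer to the level of NS-expressing cells in 2i Dox-treated than in empty vector Dox-treated cells. Of 22 measured genes, 3 stood higher and 3 lower by over 2-fold in the 2i pair, with a median of -0.11, against none higher and 7 lower without the inhibitors, with a median of -0.68. On the Dox-treated arrays 18 of the 22 were higher in 2i than in empty vector cells, 8 of them over 2-fold and 1 over 2-fold lower, with a median difference of 0.83; on the Dox-untreated arrays the median difference was 0.09 and no gene passed 2-fold. Klf2, a factor of the naive network, had 11.89 in 2i Dox-treated and 12.44 in 2i Dox-untreated cells, against 10.32 and 12.48 in empty vector Dox-treated and Dox-untreated cells. Prdm14, which represses Fgf receptor signalling and DNA methylation genes, had 10.42 in 2i Dox-treated and 10.25 in 2i Dox-untreated cells, against 8.02 and 9.83 in empty vector Dox-treated and Dox-untreated cells. For both genes the empty vector Dox-treated array was the low one. Tbx3 had ratios of 0.07 with 2i and -1.27 without the inhibitors, Klf4 -0.25 and -1.23, Esrrb -0.01 and -0.93, Tfcp2l1 0.45 and -0.77, and Nanog 0.31 and -0.32. Dppa3, a maternal factor that guards DNA methylation, had 7.61 in 2i Dox-treated and 5.56 in 2i Dox-untreated cells, against 6.27 and 6.03 in empty vector Dox-treated and Dox-untreated cells. Fbxo15, a long-used ESC marker, was higher by 1.24 in the 2i pair and 0.39 without the inhibitors.

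Not all naive genes stood at the untreated level. Nr0b1, an orphan nuclear receptor gene, had 10.09 in 2i Dox-treated and 12.39 in 2i Dox-untreated cells, and 10.13 and 12.43 in empty vector Dox-treated and Dox-untreated cells. Tcl1, a co-activator of Akt, had ratios of -1.88 with 2i and -3.27 without the inhibitors, and Gbx2 was low in the 2i pair alone. Klf5 had -0.80 with 2i and -0.07 without the inhibitors. Of 20 genes of general pluripotency, 5 stood lower and 1 higher by over 2-fold in the 2i pair, with a median of -0.40, and 3 and 1 without the inhibitors, with a median of -0.37. Lin28a, an RNA-binding repressor of let-7 processing that is low in naive cells, had 7.97 in 2i Dox-treated and 9.96 in 2i Dox-untreated cells, against 9.24 and 9.96 in empty vector Dox-treated and Dox-untreated cells. The Nodal inhibitor Lefty1 had -2.12 with 2i and -1.29 without the inhibitors, Utf1 -1.12 and 0.31, and Nodal itself 1.41 and 1.07. The probe sets of Utf1 ran from -1.12 to -0.03 in the 2i pair.

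**Figure D4:**
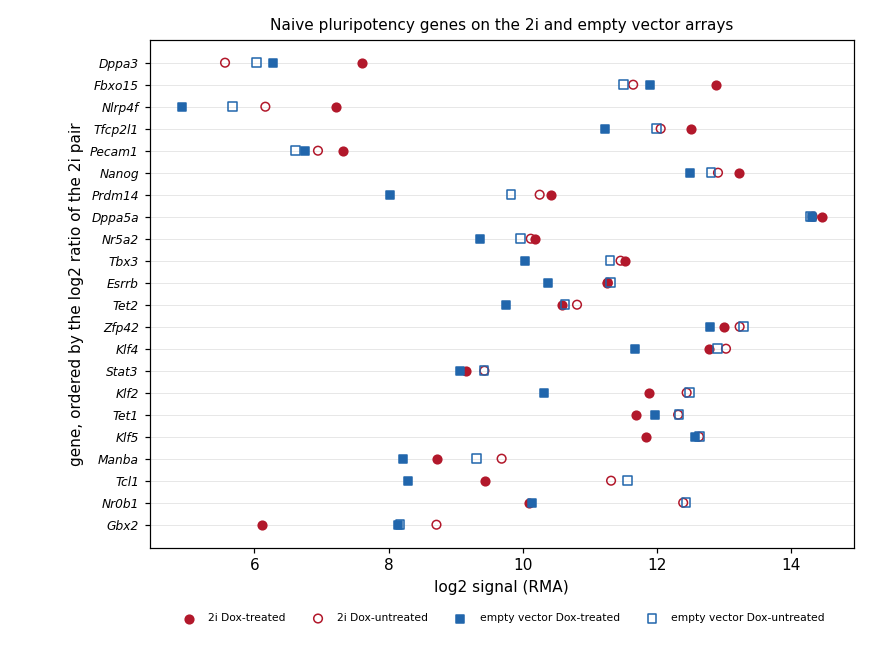
Log2 signal (horizontal axis) of 22 naive pluripotency genes (vertical axis) on 4 arrays: filled circles for 2i Dox-treated, open circles for 2i Dox-untreated, filled squares for empty vector Dox-treated and open squares for empty vector Dox-untreated cells. For Klf2, Prdm14, Tbx3 and Klf4 the filled square lies far left of the other symbols, for Gbx2 the filled circle does, and for Nr0b1 both filled symbols do.

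Genes of the primed epiblast, the later state that follows the naive one, mostly had ratios below 0. These were 12 of 16, against 8440 of 18194 over all genes. Of these 16 genes, 4 were over 2-fold lower and 1 (Nodal) over 2-fold higher in the 2i pair, with a median of -0.65. Otx2, a homeobox factor that drives the exit from the naive state, had 5.22 in 2i Dox-treated and 9.12 in 2i Dox-untreated cells, against 6.79 and 9.11 in empty vector Dox-treated and Dox-untreated cells. Otx2 was thus lower on both Dox-treated arrays and lowest with 2i. Fgf15 had ratios of -1.56 with 2i and -2.28 without the inhibitors, Sox3 -1.13 and -0.93, and Pou3f1 stood in the opposite direction as given above. Of the 16, 5 were over 2-fold lower without the inhibitors.

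Targets of LIF and Stat3 were split in the 2i pair, with 3 of 22 over 2-fold higher, 5 over 2-fold lower and a median of -0.04. Besides Gbx2, Socs2 had a ratio of -1.77, Pim1 of -1.55 and Pim3 of -1.39, while Ifitm3 was higher by 2.61. The empty vector pair had -1.67 for Socs2, -0.78 for Pim1, -0.65 for Pim3 and 3.18 for Ifitm3. Socs3, the feedback inhibitor of the pathway, had 11.50 in 2i Dox-treated and 11.24 in 2i Dox-untreated cells, and Stat3 itself 9.16 and 9.43.

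Targets of p53, the transcription factor that answers DNA damage and nucleolar stress, included many higher genes in both pairs. Of 34 measured genes of 38, 19 stood higher and none lower by over 2-fold in the 2i pair, with a median of 1.11, and 20 and none without the inhibitors, with a median of 1.32; 17 were shared. In the Nanog and Esrrb pairs the medians were 0.37 and 0.43. Cdkn1a, the gene of the cell cycle inhibitor p21, had 11.63 in 2i Dox-treated and 9.47 in 2i Dox-untreated cells, and 11.08 and 9.62 in empty vector Dox-treated and Dox-untreated cells. Mdm2, which degrades p53, had 11.92 in 2i Dox-treated and 10.38 in 2i Dox-untreated cells, and 12.76 and 10.54 in empty vector Dox-treated and Dox-untreated cells. The highest ratios of the list were those of Tap1 with 3.48, Plk2 with 3.46, Ephx1 with 2.84 and the death receptor gene Fas with 2.84 in the 2i pair and 3.54, 3.03, 2.41 and 2.84 without the inhibitors. Other probe sets of Tap1 and Plk2 gave 0.05 and 0.29 as their lowest in the 2i pair. Plk3 was the member furthest apart between the pairs, with -0.46 with 2i and 1.46 without the inhibitors.

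Cell cycle genes mostly had ratios below 0. Over all genes, 8440 of 18194 had a ratio below 0 and 9740 above 0 in the 2i pair, and 7774 stood lower in 2i than in empty vector cells on the Dox-treated arrays. Of 38 genes of G1 and S phase, 31 had a ratio below 0 in the 2i pair, 6 of them over 2-fold, and 4 were over 2-fold higher, with a median of -0.60; the empty vector pair had a median of -0.51. The 4 higher genes were Cdkn2b, an inhibitor of cyclin-dependent kinases, with 3.11, Cdkn1a with 2.16, the retinoblastoma gene Rb1 with 1.65 and Ccnd2 with 1.35, of which Ccnd2 had probe sets down to -0.19. Cdkn2b had 8.91 in 2i Dox-treated and 5.81 in 2i Dox-untreated cells, and 8.97 and 5.20 in empty vector Dox-treated and Dox-untreated cells. Among the lower genes were Cdk6 with -1.63, Uhrf1 with -1.25 and Ccne1, which encodes cyclin E1, with -1.09. Cdkn1c, an imprinted inhibitor gene, had -1.35 with 2i and 0.47 without the inhibitors. Of 33 mitosis genes, 32 had a ratio below 0 in the 2i pair, with a median of -0.44 and 2 genes (Kif11 and Nusap1) over 2-fold lower; the median was -0.12 in the empty vector pair. On the Dox-treated arrays 30 of the 33 stood lower in 2i than in empty vector cells, with a median difference of -0.31. Mki67, a marker of cycling cells, had 10.41 in 2i Dox-treated and 11.15 in 2i Dox-untreated cells, against 11.08 and 11.31 in empty vector Dox-treated and Dox-untreated cells. In RNA from whole cultures, fewer cells of a type and less RNA per cell cannot be told apart.

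Apoptosis genes showed no common direction, with 3 of 25 higher and 3 lower by over 2-fold in the 2i pair. Fas and Apaf1, the core of the apoptosome, were higher by 2.84 and 1.59, and Pmaip1, a BH3-only gene, by 1.11. Hrk, another BH3-only gene, had -1.88 with 2i and -2.39 without the inhibitors. The probe sets of Bmf and Cflar disagreed, from -2.44 to 0.16 and from -1.87 to 0.17 in the 2i pair.

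Trophoblast markers, which include keratins of simple epithelia, were mostly higher in the 2i pair. A ratio above 0 was found in 21 of 29, against 9740 of 18194 over all genes. Of 29 measured markers, 10 stood higher and 2 lower by over 2-fold in the 2i pair, with a median of 0.72, and 13 and 1 without the inhibitors, with a median of 0.58. Krt19 had 9.97 in 2i Dox-treated and 6.77 in 2i Dox-untreated cells, against 11.39 and 6.43 in empty vector Dox-treated and Dox-untreated cells. Krt7 had 8.90 in 2i Dox-treated and 5.14 in 2i Dox-untreated cells, against 7.51 and 4.60 in empty vector Dox-treated and Dox-untreated cells. The order of the Dox-treated arrays thus differed between these keratins. Krt8 and Krt18, the pair of simple epithelia, were higher by 1.70 and 1.68 in the 2i pair and by 3.85 and 4.42 without the inhibitors. Of the transcription factors that define trophoblast, Gata3 had 6.18 in 2i Dox-treated and 3.95 in 2i Dox-untreated cells, and Eomes 8.57 and 7.32. The 2 lower markers were the ligand gene Bmp4 with -2.48 and the imprinted gene Phlda2 with -1.63. Cdx2 had 5.01 and 4.90 and Elf5 3.42 and 3.20 on the 2i Dox-treated and Dox-untreated arrays, both below the median signal of genes. The X-linked homeobox genes Rhox6 and Rhox9 were higher by 1.82 and 1.68 in the 2i pair and by 0.41 and 0.04 without the inhibitors.

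Genes of keratinocyte differentiation held the highest ratio of the 2i pair. Of 37 measured genes, 8 stood higher and none lower by over 2-fold in the 2i pair, all 8 of them also in the empty vector pair, where 12 were. Krtdap, a secreted protein gene of the upper epidermis, had 10.16 in 2i Dox-treated and 4.31 in 2i Dox-untreated cells, against 7.17 and 4.23 in empty vector Dox-treated and Dox-untreated cells. Dmkn, which encodes dermokine, had 9.20 in 2i Dox-treated and 4.56 in 2i Dox-untreated cells, against 8.46 and 3.79 in empty vector Dox-treated and Dox-untreated cells. Sbsn, which encodes suprabasin, had 9.97 in 2i Dox-treated and 6.53 in 2i Dox-untreated cells, against 11.28 and 5.79 in empty vector Dox-treated and Dox-untreated cells. All 3 were high on both Dox-treated arrays, Krtdap more with 2i and Sbsn more without. Among keratins of the epidermis itself none passed 2-fold, with Krt5 at 5.57, Krt14 at 4.32, Krt1 at 4.22 and Krt10 at 7.37 in 2i Dox-treated cells, against 5.14, 4.39, 4.04 and 7.65 in 2i Dox-untreated cells. Trp63, the master factor of stratified epithelia, had 3.85 and 4.07 on the 2i Dox-treated and Dox-untreated arrays.

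Sbsn, Dmkn and Krtdap lie next to each other on mouse chromosome 7. The neighbours on either side, Gapdhs and Tmem147 on one and Ffar2 on the other, had ratios of 0.19, -0.03 and 0.23 in the 2i pair. The 250 bases before each start site follow from RefSeq (GRCm38.p6), because the 3 genes were high together. Capitals mark the motif TGANTCA, searched on both strands. It is a looser form of the AP-1 site, TGACTCA or TGAGTCA, where Jun and Fos proteins bind. Krtdap and Dmkn have TGAGTCA, while Sbsn has TGAATCA, which the stricter form leaves out. The shares given below count any middle base. For Dmkn 1 of 3 start sites of the table is shown.
Krtdap (chr7:30787655-30787904, plus strand): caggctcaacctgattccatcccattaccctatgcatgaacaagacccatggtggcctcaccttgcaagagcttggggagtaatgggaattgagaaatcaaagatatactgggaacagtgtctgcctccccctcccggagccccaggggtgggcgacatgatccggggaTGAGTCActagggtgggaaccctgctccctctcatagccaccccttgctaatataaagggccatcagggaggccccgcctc
Dmkn (chr7:30763506-30763755, plus strand): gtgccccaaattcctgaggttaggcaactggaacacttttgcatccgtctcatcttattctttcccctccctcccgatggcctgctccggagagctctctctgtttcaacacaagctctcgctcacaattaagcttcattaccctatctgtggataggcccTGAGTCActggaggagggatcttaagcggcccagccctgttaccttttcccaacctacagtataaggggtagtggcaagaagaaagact
Sbsn (chr7:30751221-30751470, plus strand): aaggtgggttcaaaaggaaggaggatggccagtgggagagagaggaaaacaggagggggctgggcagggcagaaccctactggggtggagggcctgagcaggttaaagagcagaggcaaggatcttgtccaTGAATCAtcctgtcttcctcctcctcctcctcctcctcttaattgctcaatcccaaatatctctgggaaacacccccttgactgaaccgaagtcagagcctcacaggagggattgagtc
The match begins 81 bases before the start of Krtdap, 89 before that of Dmkn and 119 before that of Sbsn. The other starts of Dmkn have it at 91 and 82 bases. The motif was found in 7.82% of the 27025 genes with a promoter in the table, in 6.70% of those on the array and in 56 of the 700 genes over 2-fold higher in the 2i pair that have a promoter there, against 4.81% of the 416 lower ones. It was found in 39.1% of the 23 keratinocyte differentiation genes with a promoter, a list that holds the 3 genes for which the motif was searched. Other lists had it in 5 of 16 genes (interferon-stimulated genes), in 23.5% of 17 (MEK and Erk targets) and in none of 21 (AP-1 and immediate early genes). A match describes the letters of these windows and is no binding site. The ETS motif CCGGAAG was found in 6.43% of the 700 higher genes, 7.45% of 416 lower genes and 11.8% of genes on the array, and the E-box CACGTG in 8.57%, 9.86% and 8.73%.

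Of 26 genes of AP-1 and of the immediate early response, 6 stood higher and 2 lower by over 2-fold in the 2i pair, with a median of 0.50, against 11 and 2 without the inhibitors, with a median of 0.72. Jun had 8.96 in 2i Dox-treated and 6.53 in 2i Dox-untreated cells, and 9.52 and 6.81 in empty vector Dox-treated and Dox-untreated cells. Fosl1, an AP-1 partner that Erk signalling induces, was higher by 0.99 in the 2i pair, and by 2.92 without the inhibitors. Jun was thus high on both Dox-treated arrays, and Fosl1 mainly on that without 2i. Targets of SRF and YAP, factors that answer to actin and cell tension, had 8 of 29 genes higher and none lower by over 2-fold in the 2i pair, with a median of 0.64, and 13 and none without the inhibitors, with a median of 0.89. The matricellular genes Ccn1 and Ccn2 were higher by 2.98 and 2.71 in the 2i pair and by 4.53 and 3.05 without the inhibitors. Cald1, an actin-binding protein gene with probe sets from 0.01 to 2.85 in the 2i pair, had 2.58 and 3.01, Anxa1 2.12 and 4.78, and Thbs1 1.05 and 3.03. The other probe set of Anxa1 had 0.66 in the 2i pair and 0.52 without the inhibitors. Of 30 matrix genes, 8 stood higher and none lower by over 2-fold in the 2i pair, among them the plasminogen activator gene Plat with 2.50 (0.26 in its other probe set), the protease inhibitor gene Timp3 with 1.78, Col4a1 with 1.83 and Col4a2 with 1.96, chains of the basement membrane collagen.

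Junction genes of epithelia went both ways. Of 35 genes, 7 stood higher and 4 lower by over 2-fold in the 2i pair. The 4 lower were Esrp1, Cldn7 with -2.13, Grhl2 with -2.11 and Epcam with -1.78, and in the empty vector pair these 3 had -0.85, 0.07 and -0.37. Epcam, an adhesion molecule of ESCs, had 10.02 in 2i Dox-treated and 11.80 in 2i Dox-untreated cells, against 11.66 and 12.03 in empty vector Dox-treated and Dox-untreated cells. The probe sets of Grhl2, an epithelial transcription factor gene, disagreed, from -2.11 to 0.38 in the 2i pair. Dsp, Cldn4 and Anxa3 were higher by 1.20, 1.22 and 1.87 in the 2i pair and by 1.91, 1.69 and 4.01 without the inhibitors.

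Markers of the germ layers were spread over a few genes. Of 27 endoderm markers, 5 stood higher and 2 lower by over 2-fold in the 2i pair, of 26 mesoderm markers 4 and 1, and of 22 neurectoderm markers 2 and 1. The medians of the 3 lists were 0.43, 0.36 and 0.10. The highest were Tbx4, a limb and lung mesoderm gene, with 8.76 in 2i Dox-treated and 4.75 in 2i Dox-untreated cells, and the neurogenic factor Neurod1 with 9.98 and 6.68. In the empty vector pair Tbx4 was higher by 3.73 and Neurod1 by 3.92. Dab2, an endocytic adaptor of extraembryonic endoderm, was higher by 1.54 in the 2i pair and had -0.22 in the empty vector pair, with its lowest probe set at 0.03 in the 2i pair. Gata6, a factor of primitive endoderm, had 6.17 in 2i Dox-treated and 4.67 in 2i Dox-untreated cells, and 6.31 and 4.89 in empty vector Dox-treated and Dox-untreated cells. The defining endoderm factors Gata4 and Sox17 had 4.62 and 5.59 in 2i Dox-treated cells, against 4.58 and 5.04 in 2i Dox-untreated cells. Of 51 developmental regulators bound by Polycomb, 9 stood higher and 2 lower by over 2-fold in the 2i pair, with a median of 0.26, and 9 and 2 in the empty vector pair. Fibroblast markers, which would show feeder cells, had 1 of 13 higher and 1 lower by over 2-fold, with Col1a1 at 3.89 and Col3a1 at 2.90 in 2i Dox-treated cells, against 3.76 and 2.56 in 2i Dox-untreated cells. The 2 were Pdgfrb, a growth factor receptor gene, with 1.34, and Thy1 with -1.18.

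Genes of ribosome production, the process in which NS works, stayed within 2-fold. None of 48 was over 2-fold higher or lower in the 2i pair, with a median of -0.11 and a range from -0.58 for Noc4l to 0.60 for Utp20, and none without the inhibitors, with a median of -0.10. Gnl2 and Gnl3l, relatives of NS, had ratios of -0.31 and -0.30, and the related GTPase gene Lsg1 0.20. Of 19 genes of the Myc network, 4 stood higher and 1 lower by over 2-fold in the 2i pair. Myc had 6.94 in 2i Dox-treated and 9.01 in 2i Dox-untreated cells, against 8.98 and 8.73 in empty vector Dox-treated and Dox-untreated cells. Mycn, its relative in ESCs, had 11.32 in 2i Dox-treated and 11.17 in 2i Dox-untreated cells. The cyclin D2 gene Ccnd2 was higher by 1.35 and Cad, an enzyme of pyrimidine synthesis, by 1.43, though the probe sets of Cad ran from -0.06 to 1.43.

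**Figure D5:**
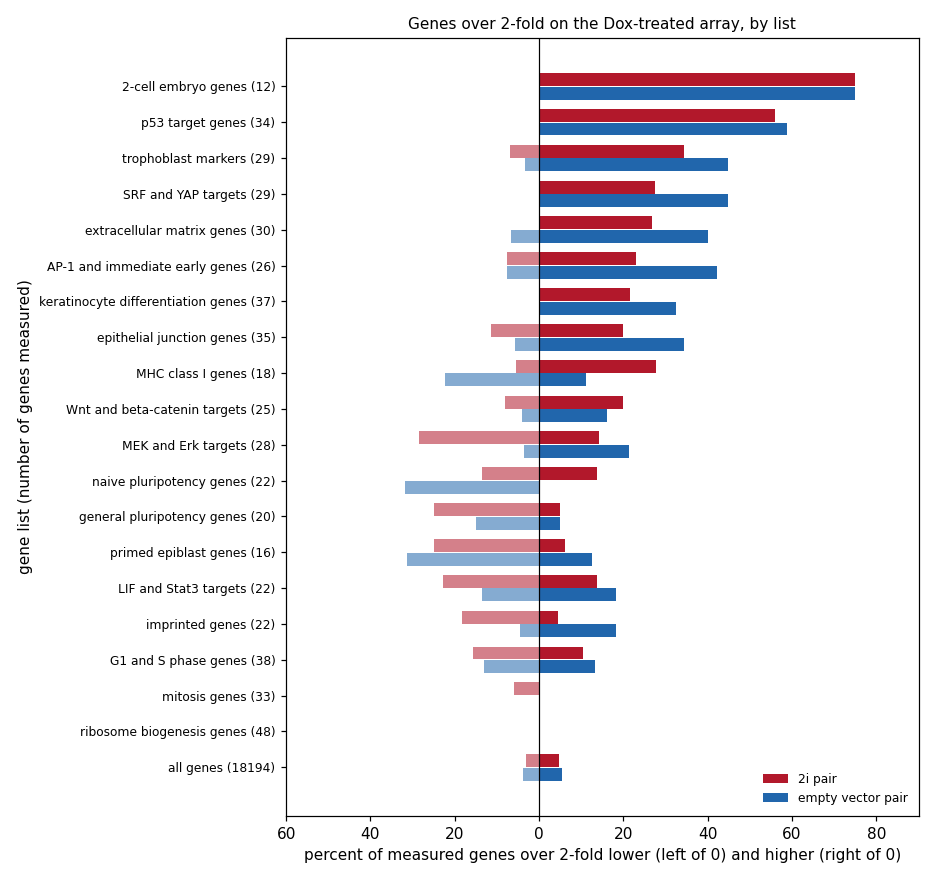
Percent of the measured genes of 19 lists and of all genes (vertical axis, number measured in brackets) that were over 2-fold higher (right of 0) and over 2-fold lower (left of 0, paler) on the Dox-treated array, in the 2i pair (red) and the empty vector pair (blue). The MEK and Erk targets hold 28.6% lower genes in the 2i pair, the naive genes hold more lower genes in the empty vector pair, and the p53 targets hold over 50% higher genes in both.

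Genes of the 2-cell embryo are expressed by a small share of ESCs. Of 12 measured genes, 9 were over 2-fold higher in the 2i pair, with a median of 1.43, and 9 without the inhibitors, with a median of 2.03. Ubtfl1 was higher by 3.12 in the 2i pair, and by 2.09 without the inhibitors. Usp17la had 10.31 in 2i Dox-treated and 7.31 in 2i Dox-untreated cells, against 9.89 and 5.18 in empty vector Dox-treated and Dox-untreated cells. Arg2, an arginase gene, was higher by 2.95 and 3.30, AF067061 by 2.12 and 4.36, and Gm20767 by 2.05 and 4.49 with and without the inhibitors. The 2i Dox-untreated array was already the higher one of the Dox-untreated arrays, with 5 of the 12 genes over 2-fold above the empty vector array. Several of these genes have near-identical copies that probe sets may share. Germline genes had 4 of 25 higher and 3 lower by over 2-fold in the 2i pair. Dazl, an RNA-binding protein gene of germ cells, had 9.93 in 2i Dox-treated and 7.66 in 2i Dox-untreated cells, and Stra8, a gene of meiotic entry, 8.35 and 6.99. In the empty vector pair Dazl was higher by 1.53 and Stra8 had -0.90. Sycp3, a gene of the synaptonemal complex, had -2.14 with 2i and -2.89 without the inhibitors.

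Of 10 DNA methylation genes, 1 was over 2-fold lower in the 2i pair, with a median of -0.44 against -0.18 in the empty vector pair. It was Uhrf1, which brings Dnmt1 to replicated DNA, with 10.46 in 2i Dox-treated and 11.71 in 2i Dox-untreated cells, and 10.21 and 11.54 in empty vector Dox-treated and Dox-untreated cells. The de novo methyltransferase genes Dnmt3a, Dnmt3b and their cofactor Dnmt3l had -0.52, -0.64 and -0.77 in the 2i pair and -0.02, 0.13 and 0.41 without the inhibitors. None of these 3 passed 2-fold. Imprinted genes had 1 of 22 higher and 4 lower by over 2-fold in the 2i pair, with a median of -0.29, against 4 and 1 without the inhibitors, with a median of 0.02. On the Dox-treated arrays 19 of the 22 were lower in 2i than in empty vector cells, 8 of them over 2-fold, against 7774 of 18194 over all genes. Rian and Meg3, maternally expressed RNAs of 1 locus, had -1.59 and -1.10 with 2i and -0.31 and -0.41 without the inhibitors, with the 11 probe sets of Meg3 between -2.20 and -0.22. The growth factor gene Igf2 had 7.84 in 2i Dox-treated and 6.93 in 2i Dox-untreated cells, against 9.63 and 6.61 in empty vector Dox-treated and Dox-untreated cells. The probe sets of Ndn, the imprinted gene over 2-fold higher in both pairs, ran from -0.24 to 1.65.

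Genes of metabolism and stress were mostly within 2-fold. Of 20 sterol synthesis genes 17 had a ratio above 0 in the 2i pair, against 9740 of 18194 over all genes. Their median was 0.40, and 1 was over 2-fold higher (Hmgcs1 with 1.11). In the empty vector pair the median was -0.01. The Nanog pair had 19 above 0 with a median of 0.54, and the Esrrb pair 17 with a median of 0.28, so this was not particular to 2i. Of 25 genes of glycolysis and hypoxia, 4 were over 2-fold higher, the highest Ankrd37 with 2.22, and 2 over 2-fold lower; the probe sets of the lowest, Pdk1, disagreed, from -2.05 to 0.08. P4ha2, a collagen prolyl hydroxylase gene, was higher by 1.85, and Egln3, an oxygen-sensing hydroxylase gene, had -1.48. In the empty vector pair 5 of these genes were over 2-fold higher and none lower, with Ankrd37 at 2.09, P4ha2 at 1.52 and Egln3 at -0.47. Genes of the integrated stress response had 2 of 27 higher and 3 lower in the 2i pair, with Nupr1 at -1.44, Chac1 at -1.31 and Hspa5 at 1.10. Lysosome genes differed more between the pairs: 3 of 24 stood higher and 1 lower by over 2-fold in the 2i pair, with a median of -0.24, against 2 and 6 without the inhibitors, with a median of -0.68. Hexa, a subunit of beta-hexosaminidase, had 10.91 in 2i Dox-treated and 11.97 in 2i Dox-untreated cells, against 8.85 and 12.30 in empty vector Dox-treated and Dox-untreated cells. Man2b1, a lysosomal mannosidase gene, was high on both Dox-treated arrays, with 12.01 in 2i Dox-treated and 9.58 in 2i Dox-untreated cells, and 12.82 and 9.30 in empty vector Dox-treated and Dox-untreated cells. Gusb, which encodes beta-glucuronidase, had ratios of 1.04 with 2i and -0.91 without the inhibitors. The transmembrane protein gene Gpnmb was higher by 2.38 in the 2i pair and by 1.18 without the inhibitors, and by 0.29 in the 2i pair in its other probe set.

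Genes of antigen presentation by MHC class I had 5 of 18 higher and 1 lower by over 2-fold in the 2i pair, against 2 and 4 in the empty vector pair. B2m, the light chain, had 10.77 in 2i Dox-treated and 9.53 in 2i Dox-untreated cells, against 9.22 and 9.19 in empty vector Dox-treated and Dox-untreated cells. Tap1, the peptide transporter, was high on both Dox-treated arrays as given among the p53 targets, while the heavy chain genes H2-D1 and H2-K1 had -0.88 and -0.83 in the 2i pair and -1.05 and -1.03 without the inhibitors. Nlrc5, the transactivator of these genes, had 5.44 in 2i Dox-treated and 4.06 in 2i Dox-untreated cells, against 6.82 and 4.50 in empty vector Dox-treated and Dox-untreated cells. The heavy chain genes share sequence, and the 9 probe sets of H2-D1 ran from -1.32 to 0.60. Interferon-stimulated genes had 1 of 20 over 2-fold higher (Ifitm3) and 2 over 2-fold lower, Bst2 with -2.04 and Ddx58 with -1.84, in the 2i pair. In the empty vector pair Bst2 had -0.04 and Ddx58 -0.77, and the 3 probe sets of Ddx58 ran from -2.94 to -0.53 with 2i. Of 14 housekeeping genes, 2 were over 2-fold higher in the 2i pair, B2m and Gusb, and the median was -0.05.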

How the data were processed

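RNA of mouse NS tet-off ESCs was hybridised to Affymetrix mouse genome arrays, 1 array per condition, and 8 arrays were used. The deposited values are log2 signals that the authors made by robust multi-array averaging (RMA) with the affy package in R (versions: not given in the sources used here). Their log base was read from the values, which ran from 1.82 to 14.6, with array medians of 5.31 to 5.36. RMA equalises the distributions of the arrays, so a shift common to all genes cannot be seen.

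Of 45101 probe sets, 34958 had 1 gene symbol in the platform annotation, 932 had several and 9211 were unnamed here. Of those with 1 symbol, 34754 matched a RefSeq gene by Entrez identifier. For each of 18194 genes, its brightest probe set by the mean of 8 arrays was taken. No column of per-sample values was left unused for want of a label. Log2 ratios subtract the signal without Dox from that with Dox within a pair and were read at 2-fold. Differences between backgrounds were fitted with limma 3.58.1 in R 4.3.3 (trend in eBayes, Benjamini-Hochberg adjustment, threshold 0.05), with 1 response per background. Nothing in the labels gives separate cultures of a condition. Tables and figures were made in Python 3.11.15 with numpy 2.4.6, pandas 2.3.3 and matplotlib 3.10.9. The scripts were tested on simulated data.

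The members and the 35 gene lists were chosen with earlier results of these data known, and 2 more lists (targets of PPAR and of BMP) after values were seen. Named by rule were Gnl3, all MEK and Erk targets, the 15 highest and 15 lowest ratios among genes with a mean signal above the median, the 4 largest ratios of each list, the 10 highest and 10 lowest of the genes over 2-fold in the 2i pair and within 1.5-fold in the empty vector pair, and the first 10 of the limma calls, of which there were 0. Any other gene was named after its values were seen. Alternatives were other ways to choose the probe set, filters, normalization, fold limits, another Dox-untreated array and other settings of limma.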

Additional observations from a re-analysis of the deposited data

Results flagged for a closer look

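Of the genes named by the rule, Id1 and Pou3f1 differed over 2-fold in opposite directions in the 2i and the empty vector pair, and this difference between the 2 pairs alone was not tested. Id1 had a log2 ratio of -3.27 in the 2i pair and 1.63 without the inhibitors, from a single probe set. Pou3f1 had -1.97 with 2i and 1.62 without, and its other probe set -0.74 and 1.11.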

How the results depend on the processing

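With every probe set in place of 1 per gene, 1313 were higher and 1042 lower by over 2-fold in the 2i pair. With only genes above the median signal, 486 genes were higher. At 1.5-fold 2008 genes were higher and 1657 lower, and at 3-fold 354 and 185. The other alternatives gave 684 to 1090 higher and 385 to 701 lower genes. With the empty vector Dox-untreated array in place of the 2i one, 1090 were higher and 701 lower, and the log2 ratio of 85 of 173 named genes differed by more than 0.278, the SD between the 2 Dox-untreated arrays. Averaging all probe sets of a gene did so for 49 named genes. No named ratio beyond 2-fold turned its sign in any alternative that kept 1 value per gene. Named ratios were not compared over every probe set, and 10 named genes beyond 2-fold had a probe set of the opposite direction. Over leaving out each of the other pairs, limma called 0 to 2089 genes, with 2089 only without the empty vector pair and 784 or 892 genes at an unadjusted p under 0.05 without the Nanog or the Esrrb pair. The other settings of limma called 0 genes, with 660 to 1457 at an unadjusted p under 0.05. Because the Nanog and Esrrb pairs responded weakly, neither 0 nor 2089 measures what is particular to 2i. The limma comparison is already paired by background, since each response is taken within 1 background. No paired analysis was possible by replicate number, because each condition has 1 array and the labels give no such numbers. The lack of a second array of any condition limits every ratio, and signals below the median of genes understate differences, since RMA compresses low values.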

Other observations

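Targets of peroxisome proliferator-activated receptors (PPAR), the nuclear receptors of fatty acid use, were looked at after Vnn1, Fabp5 and Slc25a20 had been seen among the highest genes, so their count carries no test. Of 30 measured targets, 8 were higher and 1 lower by over 2-fold in 2i Dox-treated than in 2i Dox-untreated cells, with a median of 0.18, and 4 and 1 without the inhibitors, with a median of -0.10. On the Dox-treated arrays 7 were over 2-fold higher in 2i than in empty vector cells and none over 2-fold lower, and on the Dox-untreated arrays none passed 2-fold. Cidea, a lipid droplet protein gene, had 7.98 in 2i Dox-treated and 5.15 in 2i Dox-untreated cells, against 4.75 and 5.40 in empty vector Dox-treated and Dox-untreated cells. Fabp3, a fatty acid carrier gene, had 11.35 in 2i Dox-treated and 9.72 in 2i Dox-untreated cells, against 9.91 and 9.17 in empty vector Dox-treated and Dox-untreated cells. Plin2, a coat protein of lipid droplets, was higher by 1.26 in the 2i pair and by 2.33 without the inhibitors. Cpt1a, the entry step of mitochondrial fatty acid oxidation, had 0.41 with 2i and -1.05 without.

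Targets of bone morphogenetic proteins (BMP) were looked at after Id1 and Bmp4 had been seen among the lower genes. Of 12 measured targets, 2 were higher and 2 lower by over 2-fold with 2i, and 5 and 1 without the inhibitors. Id2 had 10.59 in 2i Dox-treated and 8.70 in 2i Dox-untreated cells, against 11.80 and 9.54 in empty vector Dox-treated and Dox-untreated cells. Zfp423, a cofactor of Smad proteins, had 6.61 in 2i Dox-treated and 8.97 in 2i Dox-untreated cells, against 9.03 and 9.07 in empty vector Dox-treated and Dox-untreated cells. Id3 had 0.10 with 2i and 1.17 without, so that Id1, Id2 and Id3, relatives with like functions, did not share a direction in the 2i pair.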
